A study of Homo sapiens with 12 samples.

Results

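Alpelisib (BYL719), an inhibitor of the alpha isoform of the lipid kinase PI3K, was compared with its vehicle DMSO in the control line (CTRL) of T47D, a long-established line of luminal breast cancer cells that carry the estrogen receptor. Messenger RNA was sequenced from 3 CTRL libraries given DMSO and 3 CTRL libraries given 3 µM BYL719, each for 48 h, and these 6 libraries were taken by their column names out of a table of the whole series. The other libraries of the series are of an NF1 knockout line (NF1KO) under the same treatments, with 2 in DMSO and 3 in BYL719, so that 11 of 12 labelled samples had counts. Of the 27864 genes in the count table, 16081 had enough counts to be tested, and the account covers all of them. The labels give the genotype of the cells as CTRL without saying how that line was made or whether it is 1 clone. Replicates are described as experimental replicates, so the p-values measure only the spread between these libraries, which may be technical.

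PI3K alpha sits below the insulin, IGF and ERBB receptors and makes the lipid that recruits the kinase AKT. Active AKT keeps FOXO transcription factors out of the nucleus and supports mTOR complex 1, which promotes the making of ribosomes and proteins. The T47D line carries an activating mutation of PIK3CA, the gene of this isoform. Cells that stop cycling lose mRNAs controlled by E2F factors, which serve DNA replication, and mRNAs controlled by the MuvB complex with B-MYB and FOXM1, which serve mitosis.

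The 6 libraries held between 53837445 and 60148876 counts, and 39 ribosomal RNA genes took 8.70%, 10.6% and 10.9% of them in DMSO and 10.3%, 10.8% and 12.6% in BYL719. The first principal component of the 6 libraries carried 67.4% of the variance and separated the treatments. The second component, with 18.2%, set the libraries numbered 1 of both treatments apart from the other 4. Spearman correlations across the genes tested were 0.994 to 0.998 within DMSO, 0.993 to 0.998 within BYL719 and 0.974 to 0.983 between treatments. Of 23 markers of fibroblasts, leukocytes, endothelium and myoepithelium, 10 had enough counts to be tested. In BYL719 2 were higher (CNN1 and CD68) and 3 lower (COL1A1, ACTA2 and VIM), against 22.6% and 21.8% of all genes tested. The lower ones numbered 1 without DMSO replicate 2 or BYL719 replicate 1 or 2. Their summed level was 59.3, 57.7 and 63.5 CPM (normalised read count, scaled to the library's size) in the DMSO replicates 1, 2 and 3 and 42.4, 34.8 and 40.1 CPM in BYL719, most of it COL1A1 at 51.9, 49.4 and 55.2 CPM and 35.4, 26.9 and 31.6 CPM. The endothelial marker PECAM1 was at 0 in all 6 libraries, and the leukocyte gene PTPRC, the basal keratins KRT5 and KRT14 and the fibroblast genes DCN, LUM and PDGFRA were among the 13 with too few counts to test. The part of these markers in the results was not tested. Of 14 luminal markers 5 were higher and 0 lower (3 higher without DMSO replicate 1 or 3 or BYL719 replicate 2 or 3, and with only the 6 CTRL libraries fitted). The keratin gene KRT8, with 3544, 4327 and 3805 CPM in DMSO, and FOXA1, with 306, 299 and 303 CPM, were abundant in each library. In bulk RNA, fewer cells of a kind and less RNA per cell cannot be told apart.

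BYL719 raised 3628 genes (22.6% of those tested) and lowered 3504 (21.8%) at an adjusted p under 0.05 in edgeR's quasi-likelihood test with Benjamini-Hochberg adjustment, which is what rose, fell and changed refer to throughout. This fit takes its spread from all 11 libraries, those of NF1KO included, and has no term for the replicate number. The 6 CTRL libraries alone, without such a term, gave 3118 genes higher and 3077 lower. With that number as a block within the 6 CTRL libraries, 5106 genes were higher and 5267 lower. Changes are given as log2 values with their SE, and list medians are of log2 changes. Lists and their members were chosen with earlier results of these data known. Genes named below were picked as markers, by size of change, by adjusted p or after their values were seen. Where their groups are said not to overlap, this is a description, and the share without overlap among all genes is not given here. More than 2-fold changes made up 826 of the rises (5.14% of the genes tested) and 650 of the falls (4.04%). With genes limited to those at 1 CPM or more in at least 3 libraries, 493 rose by more than 2-fold. The median log2 change over all genes tested was 0.0049, with quartiles of -0.26 and 0.31. Large rises and large falls sat at different levels of expression. Of the 4021 genes with the lowest mean levels 564 rose and 235 fell by more than 2-fold, while of the 4020 with the highest 44 rose and 123 fell by as much. Counting all calls, 21.5% of the former rose and 11.4% fell, against 20.9% and 28.5% of the latter. Protein-coding genes were split evenly, with 23.0% of 13857 higher and 23.5% lower, whereas of 1338 long non-coding RNAs 23.2% rose and 11.4% fell. The latter split is near that of the genes with the lowest mean levels, and the part of level in it was not tested.

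**Figure D1:**
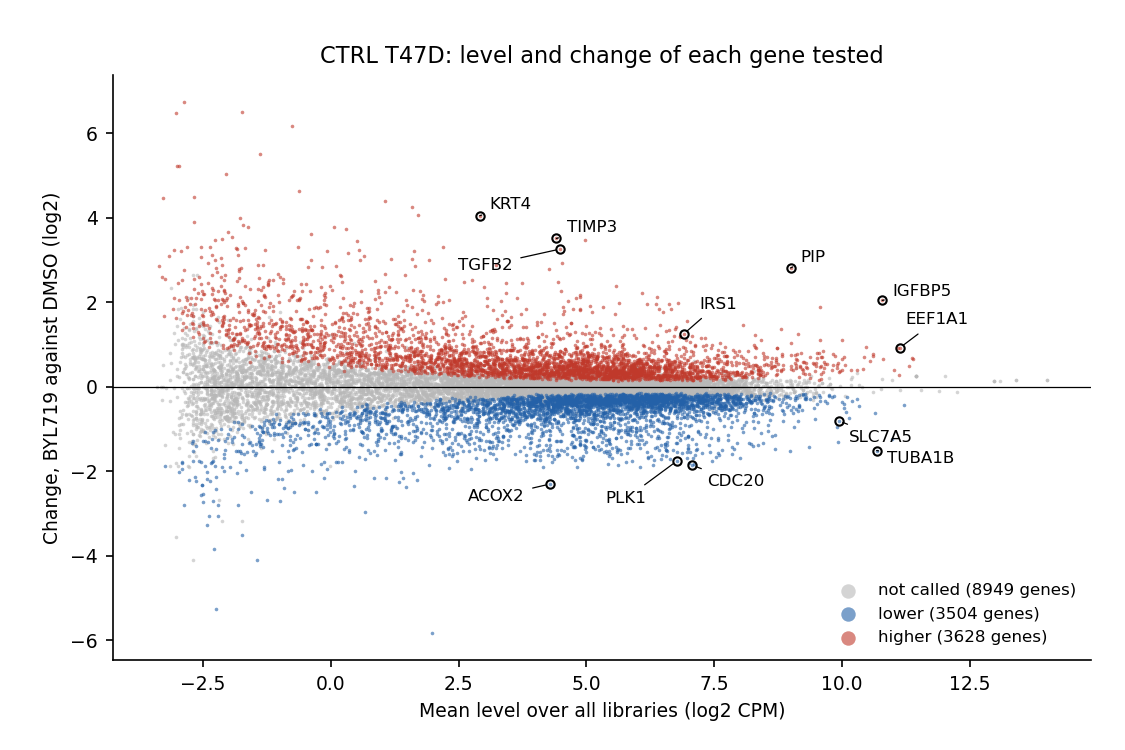
Each point is 1 of the 16081 genes tested, placed by its mean level over the 11 libraries (log2 CPM, horizontal) and its log2 change in BYL719 against DMSO in CTRL (vertical), with red for the 3628 higher, blue for the 3504 lower and grey for the 8949 not called. The labelled genes run from KRT4 at 4.05 to ACOX2 at -2.30, and the largest changes lie at low levels on the left, where fitted folds rest on few counts.

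The 4 genes given as markers of the comparison changed far beyond the spread between libraries. Since they came with the comparison as its markers, the size of their changes is a description. CDC20 (Entrez 991, chr1:43358981-43363203 of GRCh38.p14), which switches on the anaphase-promoting complex to let chromosomes separate, stood at 192, 211 and 197 CPM in the DMSO replicates 1, 2 and 3 and at 59.2, 54.8 and 52.0 CPM in BYL719. IRS1 (Entrez 3667, chr2:226731312-226799820), the adaptor that couples the insulin and IGF1 receptors to PI3K, went the other way, from 50.4, 49.4 and 55.1 CPM to 128, 116 and 126 CPM. The groups of neither gene overlapped, and the libraries of a group lay close together.

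KRT4, a keratin of stratified mucosa (Entrez 3851, chr12:52806549-52814116), was close to silent in DMSO with 1.68, 1.28 and 1.26 CPM and reached 20.3, 27.9 and 22.1 CPM in BYL719. TIMP3 (Entrez 7078, chr22:32801705-32863041), a matrix-bound inhibitor of metalloproteinases, stood at 2.28, 2.68 and 2.62 CPM in DMSO and 25.8, 29.8 and 30.9 CPM in BYL719. The log2 changes were -1.85 ± 0.08 for CDC20 (adjusted p = 2.15e-08), 1.26 ± 0.07 for IRS1 (adjusted p = 8.30e-08), 4.05 ± 0.18 for KRT4 (adjusted p = 2.29e-08) and 3.51 ± 0.10 for TIMP3 (adjusted p = 1.52e-09).

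**Figure D2:**
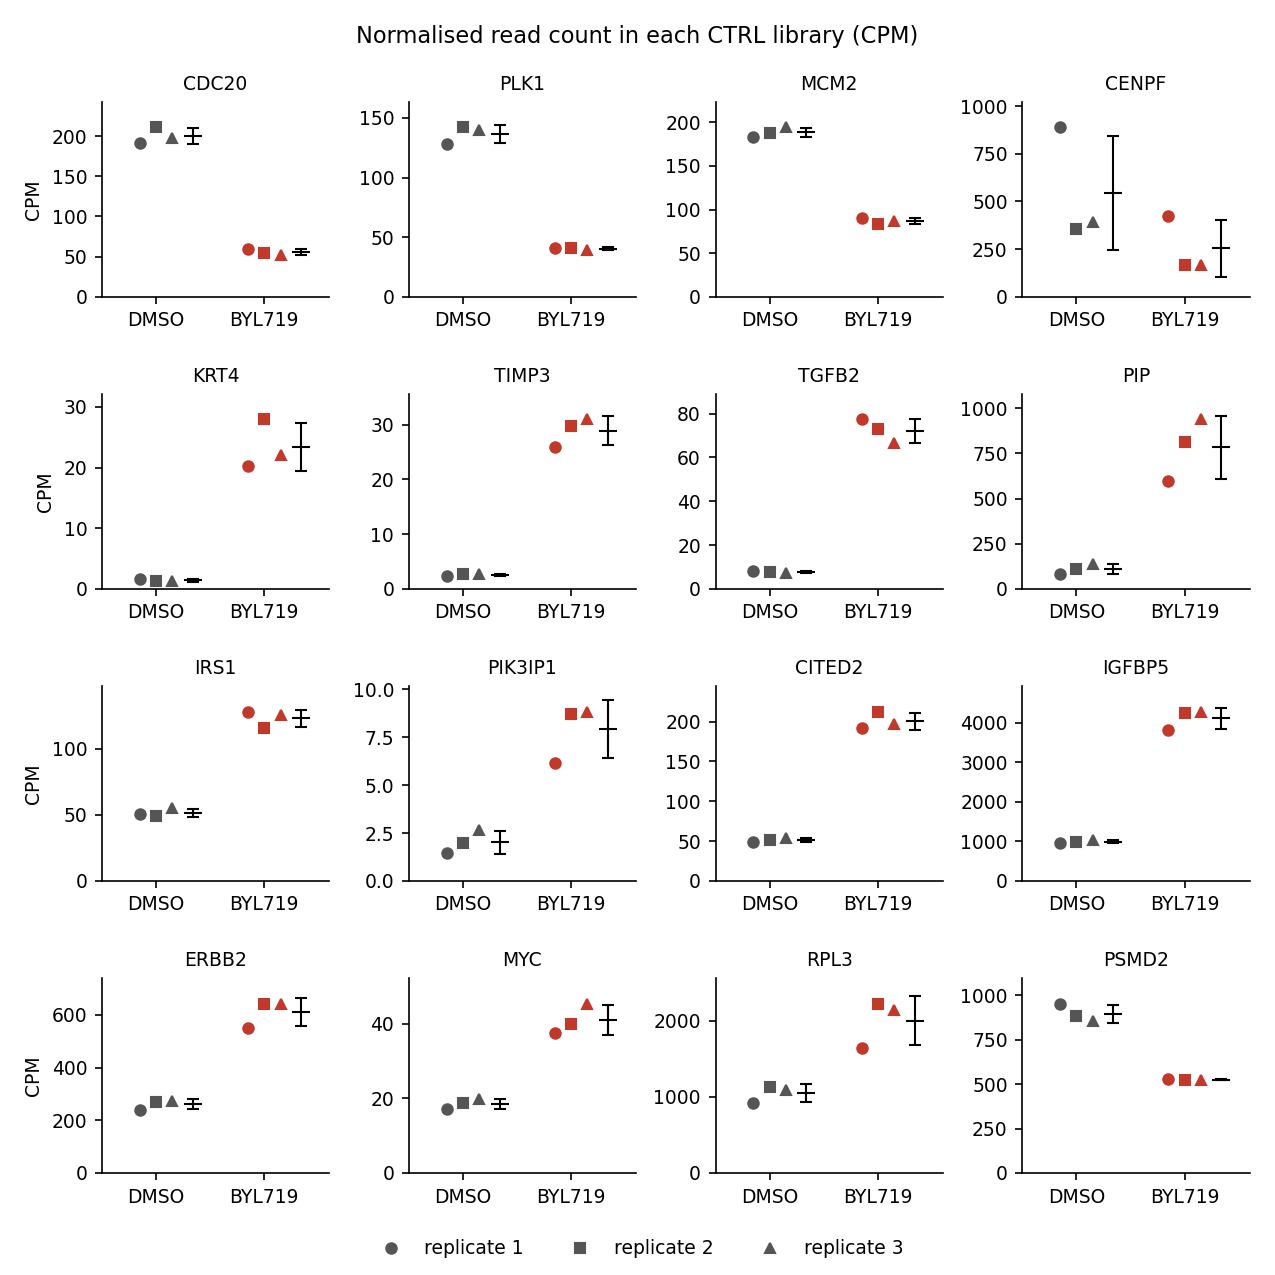
Normalised read count (CPM, vertical) of 16 genes in each CTRL library, by treatment, with grey for DMSO, red for BYL719, the symbol giving the replicate number and bars the mean with its SD (n = 3). The groups are apart for each gene but CENPF, where replicate 1 of BYL719 (426 CPM) lies above replicates 2 and 3 of DMSO (353 CPM and 390.2 CPM).

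Genes of the insulin, IGF and PI3K pathway were called in both directions, 7 of 25 higher and 5 lower, with a median log2 change of 0.05. These shares are near the 22.6% and 21.8% of all genes tested. The insulin receptor INSR rose from 11.8 to 22.7 CPM (0.95 ± 0.09, adjusted p = 3.90e-06) and the second insulin receptor substrate, IRS2, from 3.58 to 7.85 CPM (1.13 ± 0.10, adjusted p = 4.10e-06). PIK3IP1, a membrane protein that restrains the PI3K catalytic subunit, went from 1.44, 1.97 and 2.65 CPM to 6.16, 8.72 and 8.84 CPM (1.97 ± 0.20, adjusted p = 1.01e-05). All 3 BYL719 libraries exceeded all 3 DMSO libraries for each of these genes. IGFBP5 (Entrez 3488, chr2:216672105-216695549), a secreted protein that binds IGFs, gained more reads than any other gene in the table. It held 955, 989 and 1036 CPM in DMSO and 3809.7, 4231 and 4277 CPM in BYL719, a log2 change of 2.05 ± 0.09 (adjusted p = 2.64e-08). Falls were smaller: the adaptor GRB10 changed by -0.42 ± 0.07 (adjusted p = 0.000380), the lipid phosphatase INPPL1 by -0.40 ± 0.09 (adjusted p = 0.00299) and IGFBP2 by -0.47 ± 0.11 (adjusted p = 0.00427). The drug's target PIK3CA did not pass the test (0.15 ± 0.09, adjusted p = 0.236), nor did the IGF1 receptor IGF1R (0.10 ± 0.10, adjusted p = 0.472).

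Among the kinases and regulators downstream, AKT, SGK, PIM and mTOR, 1 of 21 rose and 6 fell, with a median of -0.13. Over all genes tested 22.6% rose and 21.8% fell. PIM1, a survival kinase, changed by -0.73 ± 0.11 (adjusted p = 0.000199) and RHEB, the GTPase that activates mTOR complex 1, by -0.41 ± 0.07 (adjusted p = 0.000792). TSC2, which switches RHEB off, rose by 0.32 ± 0.06 (adjusted p = 0.00124, overlapping PKD1 at 28.0%). Here and below, where a position overlaps another gene, that gene's counts are given as a percent of the gene's own, since the use of strand in counting is not given in the sources used here. Both counts are sums over all 11 libraries, those of NF1KO included, so the percent in CTRL alone can differ. The kinase genes AKT1 and AKT2 had log2 changes of -0.12 and 0.04, neither of which passed the test. The single rise became 3 without DMSO replicate 1 or BYL719 replicate 2 and 2 without BYL719 replicate 3. Libraries with the same replicate number deviated together across treatments, most clearly those numbered 1. With that number as a block within the 6 CTRL libraries the counts were 11 higher and 9 lower for the insulin, IGF and PI3K genes and 3 higher and 13 lower for the AKT and mTOR genes. PIK3CA (adjusted p = 0.00372), IGF1R (adjusted p = 0.0312) and AKT1 (adjusted p = 0.00402) passed with this block.

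FOXO factors and genes known as their targets leaned upward, with 18 of 22 higher, 0 lower (2 with the replicate block within the 6 libraries) and a median of 0.64. The members were chosen with earlier results of these data known, so the count is a description. Some of these genes are listed with the insulin pathway as well (INSR, IRS2, PIK3IP1). To show where the known FOXO core motif occurs, GTAAACA was searched on both strands of RefSeq promoters (GRCh38.p14, 250 bases before to 50 after the start of transcription). It was in 4 of the 20 list members that had a promoter entry, against 2.27% of the 12380 tested genes with an entry and 3.41% of all 27305 promoters. A match to 7 letters is a description of the sequence and does not show binding. The promoters of TXNIP (chr1:145996560-145996709, minus strand) and YPEL3 (chr16:30096194-30096343, minus strand) are shown because both held the motif in the stretch from 130 bases before it to 20 after, where it is in capitals.
TXNIP: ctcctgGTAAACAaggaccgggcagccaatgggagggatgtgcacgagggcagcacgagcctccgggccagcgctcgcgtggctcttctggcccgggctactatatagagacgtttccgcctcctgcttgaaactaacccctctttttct
YPEL3: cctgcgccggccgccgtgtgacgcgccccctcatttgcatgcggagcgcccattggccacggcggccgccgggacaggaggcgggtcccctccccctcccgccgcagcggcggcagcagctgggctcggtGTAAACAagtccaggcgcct

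TXNIP, which inhibits thioredoxin and glucose uptake, stood at 65.9, 71.8 and 80.1 CPM in DMSO and 113, 112 and 119 CPM in BYL719, a log2 change of 0.66 ± 0.07 (adjusted p = 2.04e-05). YPEL3, a growth-inhibitory protein, stood at 3.47, 4.25 and 5.12 CPM and 8.32, 12.1 and 12.4 CPM, a change of 1.36 ± 0.17 (adjusted p = 5.29e-05). The largest changes of the list were those of CITED2, KLHL24 and PIK3IP1. CITED2, a transcriptional co-regulator, went from 49.0, 51.7 and 54.2 CPM to 192, 213 and 198 CPM (1.96 ± 0.10, adjusted p = 5.81e-08), and KLHL24, a substrate adaptor of a ubiquitin ligase, from 18.7, 23.7 and 23.4 CPM to 84.2, 90.1 and 88.3 CPM (2.00 ± 0.11, adjusted p = 7.23e-08). Of the factors themselves, FOXO3 rose by 0.55 ± 0.08 (adjusted p = 0.000228) and FOXO1 by 0.62 ± 0.10 (adjusted p = 0.000273), and they were joined by the repressor BCL6 by 1.00 ± 0.10 (adjusted p = 6.97e-06) and the atypical cyclin CCNG2 by 1.38 ± 0.11 (adjusted p = 1.40e-06). Some textbook targets did not pass the test. CDKN1B, which encodes the CDK inhibitor p27, was at 31.5 CPM in DMSO and 29.6 CPM in BYL719 (adjusted p = 0.400), and GADD45A, SESN1 and PDK4 had log2 changes of -0.29, -0.13 and -0.16, likewise. GADD45A and SESN1 passed as lower with the replicate block within the 6 libraries (adjusted p = 0.0457 and 0.0489).

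Of the ERBB receptors, ERBB2, which encodes HER2, had 238, 267 and 275 CPM in DMSO and 549, 640.2 and 642 CPM in BYL719, and its kinase-impaired partner ERBB3 had 396, 389 and 412 CPM and 682, 634 and 659 CPM. Both rose, ERBB2 by 1.23 ± 0.09 (adjusted p = 5.07e-07) and ERBB3 by 0.72 ± 0.06 (adjusted p = 2.44e-06), together with LRIG1, a negative regulator of ERBB receptors (0.62 ± 0.06, adjusted p = 5.22e-06). EGFR (0.23) and ERBB4 (0.12) did not pass the test. Of the ligands, NRG4 fell from 5.13 to 2.15 CPM (-1.25 ± 0.12, adjusted p = 5.01e-06, overlapping FBXO22 at 2378%), and 4 of 14 genes in the list rose and 2 fell (22.6% of all genes tested rose and 21.8% fell), with a median of 0.23. The falls numbered 1 without DMSO replicate 1 or 3 or BYL719 replicate 1 or 2, and with only the 6 CTRL libraries fitted. With the replicate block within the 6 libraries 7 rose, EGFR among them (adjusted p = 0.00190), and 2 fell.

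Genes read as output of the ERK pathway were split, with 4 of 20 higher, 8 lower and a median of -0.34. Of all genes tested 22.6% rose, near the share in this list, and 21.8% fell. JUN, a subunit of the transcription factor AP-1, rose from 15.2, 15.1 and 17.4 CPM to 42.99, 41.3 and 43.2 CPM (1.42 ± 0.07, adjusted p = 4.51e-08), and PHLDA1 rose from 10.9 to 26.5 CPM (1.28 ± 0.12, adjusted p = 5.00e-06). The ETS factor ETV1 fell from 0.877 to 0.111 CPM (-2.96 ± 0.25, adjusted p = 2.38e-06), EGR3, an early growth response factor, by -1.76 ± 0.30 (adjusted p = 0.000537) and the stress-response gene IER3 by -0.51 ± 0.07 (adjusted p = 0.000129). DUSP6, SPRY2 and SPRY4, feedback inhibitors of the pathway, did not pass the test, with log2 changes of -0.16, 0.09 and -0.88 at DMSO means of 0.953, 1.80 and 0.285 CPM. MYC and the genes that share its partner MAX rose more often than they fell, 7 of 12 against 3, with a median of 0.45. MYC itself had 17.1, 18.7 and 19.8 CPM in DMSO and 37.6, 39.9 and 45.3 CPM in BYL719 (1.14 ± 0.09, adjusted p = 1.18e-06), and the MYC antagonists MXD1 (1.34 ± 0.09, adjusted p = 5.17e-07) and MXI1 (1.09 ± 0.08, adjusted p = 9.50e-07) rose as well. MXD3, a member of the same family as MXD1, changed by -1.34 ± 0.14 (adjusted p = 1.11e-05, overlapping PRELID1 at 1847%).

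Every measured member of the kinetochore and spindle list fell, 35 of 35, 33 of them by more than 2-fold, and the median was -1.48. Summed over the list, the level was 6555, 5459 and 5351 CPM in DMSO and 2813, 2084 and 1961 CPM in BYL719. Promoters of such genes are known for the cell cycle homology region, TTTGAA, and for CCAAT boxes. TTTGAA was found on either strand in 20 of 28 members with a promoter entry (71.4%), against 9.92% of tested genes and 15.4% of all promoters, and CCAAT in 20 of 28 (71.4%), against 37.1% and 35.7%. Both motifs were in 14 of the 28 promoters, against 4.31% of tested genes and 6.08% of all promoters. The sequences of CDC20 (chr1:43358851-43359000, plus strand), PLK1 (chr16:23678759-23678908, plus strand) and CDCA8 (chr1:37692386-37692535, plus strand) are printed to show how the motifs lie together just before the start, from 130 bases before it to 20 after, with TTTGAA and CCAAT in capitals, or ATTGG where CCAAT is on the other strand. Among them only CDCA8 is in the kinetochore and spindle list and so among the promoters counted.
CDC20: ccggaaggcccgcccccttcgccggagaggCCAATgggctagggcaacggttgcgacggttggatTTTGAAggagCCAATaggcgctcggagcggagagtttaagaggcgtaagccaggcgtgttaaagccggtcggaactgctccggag
PLK1: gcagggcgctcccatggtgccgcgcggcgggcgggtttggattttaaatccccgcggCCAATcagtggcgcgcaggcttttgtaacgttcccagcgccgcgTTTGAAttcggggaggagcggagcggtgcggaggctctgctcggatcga
CDCA8: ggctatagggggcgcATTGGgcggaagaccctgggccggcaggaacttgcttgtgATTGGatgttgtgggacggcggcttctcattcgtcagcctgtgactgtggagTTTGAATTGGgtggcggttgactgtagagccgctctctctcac
In CDCA8 the last TTTGAA and an ATTGG share bases, so that they read as 1 run of capitals.

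PLK1 (chr16:23678889-23690367), the kinase that drives entry into and passage through mitosis, was at 128, 142 and 140.3 CPM in DMSO and 41.3, 40.6 and 39.3 CPM in BYL719 (-1.76 ± 0.06, adjusted p = 1.16e-08). CDCA8, a subunit of the chromosomal passenger complex, was at 122, 128 and 123 CPM and 49.2, 42.96 and 40.5 CPM (-1.49 ± 0.07, adjusted p = 4.20e-08). Its partner kinase AURKB changed by -1.63 ± 0.08 (adjusted p = 4.20e-08), the depolymerising kinesin KIF2C by -1.71 ± 0.07 (adjusted p = 2.08e-08), the centrosome kinases NEK2 by -1.55 ± 0.07 (adjusted p = 2.37e-08) and AURKA by -1.62 ± 0.08 (adjusted p = 3.23e-08). Replicates 2 and 3 of a treatment were close for these genes, and the treatments did not overlap. Some members of the list were higher in replicate 1 of both treatments. CENPF, a kinetochore protein, had 889, 353 and 390.2 CPM in DMSO and 426, 169 and 168 CPM in BYL719, and the motor CENPE had 129, 43.9 and 41.7 CPM and 49.0, 13.8 and 14.4 CPM. Within a replicate number each of these was lower in BYL719, but across numbers CENPF overlapped. Their falls (CENPF -1.10 ± 0.38, adjusted p = 0.0343, and CENPE -1.48 ± 0.50, adjusted p = 0.0299), and that of ASPM (-0.91 ± 0.30, adjusted p = 0.0281), did not pass under 5, 4 and 5 of the 17 alternatives tried.

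The machinery that separates chromosomes fell with them. Of 27 genes of the anaphase-promoting complex, cohesin and condensin, 23 fell and 0 rose, with a median of -1.26. The E2 enzyme UBE2C (-1.67 ± 0.08, adjusted p = 2.66e-08), the securin PTTG1 (-1.79 ± 0.09, adjusted p = 4.20e-08) and the condensin subunits NCAPD2 (-1.36 ± 0.06, adjusted p = 2.64e-08) and NCAPH (-1.56 ± 0.08, adjusted p = 7.23e-08) were among the falls. The core subunits CDC16, CDC23 (overlapping KIF20A at 167%) and ANAPC5 had log2 changes of 0.14, -0.11 and -0.07 and did not pass the test. With the replicate block within the 6 libraries 2 members rose, among them CDC16 (adjusted p = 0.00580), and CDC23 fell (adjusted p = 0.0117). TTTGAA was in 11 of 25 promoters of this list (44.0%).

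All 32 genes of origin licensing and the replication fork fell, 23 by more than 2-fold, with a median of -1.07. The summed level was 3298, 3072 and 2979.9 CPM in DMSO and 1663, 1462 and 1408 CPM in BYL719. Promoters of this class are known for E2F sites, which were searched as TTTGGCGC, TTTCCCGC and TTTCGCGC on both strands. One of them was in 17 of 30 promoters (56.7%), against 4.47% of tested genes, 2.79% of all promoters and 1 of 28 kinetochore and spindle promoters (3.57%). TTTGAA was in 0 of the 30. These letters belong to 2 classes of cell-cycle promoter by background knowledge, and the match says nothing of which factor was bound in these cells. The promoters of MCM2 (chr3:127598281-127598430, plus strand), MCM3 (chr6:52284723-52284872, minus strand) and CDC6 (chr17:40287749-40287898, plus strand) are shown over the same stretch, with the E2F letters in capitals, all of them within a few bases of the start, and 2 overlapping copies on opposite strands in MCM2.
MCM2: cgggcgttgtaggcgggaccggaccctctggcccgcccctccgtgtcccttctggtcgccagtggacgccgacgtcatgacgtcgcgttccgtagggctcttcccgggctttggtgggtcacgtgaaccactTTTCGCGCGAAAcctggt
MCM3: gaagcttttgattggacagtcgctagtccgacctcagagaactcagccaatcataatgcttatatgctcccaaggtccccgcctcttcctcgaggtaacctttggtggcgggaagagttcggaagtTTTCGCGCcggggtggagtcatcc
CDC6: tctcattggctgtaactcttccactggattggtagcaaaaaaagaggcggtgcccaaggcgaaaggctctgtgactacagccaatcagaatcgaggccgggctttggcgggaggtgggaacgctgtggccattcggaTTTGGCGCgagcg

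MCM2, a subunit of the helicase that opens DNA at origins, had 183, 188 and 194 CPM in DMSO and 90.1, 84.0 and 86.8 CPM in BYL719 (-1.12 ± 0.06, adjusted p = 4.51e-08). MCM3 of the same helicase had 261, 235 and 230.3 CPM and 141, 125 and 119 CPM (-0.92 ± 0.07, adjusted p = 1.52e-06), and the helicase loader CDC6 had 129, 118 and 111 CPM and 52.0, 47.9 and 44.6 CPM (-1.31 ± 0.08, adjusted p = 1.43e-07). The groups were apart for all 3. The polymerase subunit POLE2 changed by -1.27 ± 0.07 (adjusted p = 7.55e-08) and MCM5 by -1.03 ± 0.06 (adjusted p = 1.29e-07). At the small end of the list, POLA1, the catalytic subunit of the primase polymerase, changed by -0.36 ± 0.08 (adjusted p = 0.00245).

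Enzymes that supply nucleotides and one-carbon units fell in 20 of 24 cases and rose in 0, with a median of -0.43. Large falls included those of the ribonucleotide reductase subunit RRM2 at -1.35 ± 0.08 (adjusted p = 1.74e-07), thymidylate synthase TYMS at -1.19 ± 0.08 (adjusted p = 3.72e-07) and the dUTPase DUT at -0.95 ± 0.06 (adjusted p = 2.72e-07). Among enzymes of purine and pyrimidine synthesis, the CTP synthase CTPS1 was at -0.82 ± 0.12 (adjusted p = 0.000119) and GMPS, which makes GMP, at -0.82 ± 0.05 (adjusted p = 3.58e-07). CAD, of pyrimidine synthesis, was at -0.24 ± 0.06 (adjusted p = 0.00987). GART, of purine synthesis, was at -0.12 ± 0.06 and did not pass the test (adjusted p = 0.113), but passed with the replicate block within the 6 libraries (adjusted p = 0.00588). The count of rises was 1 without BYL719 replicate 1 and with the replicate block within the 6 libraries. Of 26 genes of homologous recombination and the Fanconi pathway, 23 fell and 0 rose, with a median of -1.10 (1 rise without DMSO replicate 1, and with the same block). The checkpoint kinase CHEK1 changed by -1.20 ± 0.07 (adjusted p = 1.16e-07) and BARD1, the partner of BRCA1, by -1.04 ± 0.06 (adjusted p = 1.77e-07), while ATM, RAD50 and PALB2 had changes of 0.07, 0.14 and -0.16 and did not pass the test. In the fit with the block RAD50 (adjusted p = 0.0126) passed as higher and PALB2 (adjusted p = 0.0160) as lower. All 18 genes of chromatin maintenance fell (median -1.06), including the heterochromatin methyltransferase SUV39H1, from 55.1, 59.5 and 61.3 CPM to 25.04, 25.1 and 25.7 CPM (-1.21 ± 0.06, adjusted p = 6.23e-08), the histone chaperone ASF1B (-1.46 ± 0.09, adjusted p = 1.66e-07) and the nuclear lamina protein LMNB1 (-1.38 ± 0.09, adjusted p = 1.92e-07).

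Of the factors that drive these programmes, 13 of 18 E2F, RB, MuvB and FOXM1 genes fell and 2 rose, with a median of -0.53. FOXM1 went from 202, 195 and 194 CPM to 70.4, 63.3 and 59.2 CPM (-1.61 ± 0.08, adjusted p = 3.23e-08, overlapping RHNO1 at 45.3%), and MYBL2, which encodes B-MYB, changed by -1.26 ± 0.07 (adjusted p = 6.66e-08). E2F1 changed by -1.17 ± 0.09 (adjusted p = 1.25e-06) and E2F8 by -1.53 ± 0.12 (adjusted p = 1.34e-06). The retinoblastoma gene RB1 (-0.11) and the repressor E2F4 (0.17) did not pass the test, and RBL2, which encodes the p130 pocket protein of quiescent cells, rose by 0.32 ± 0.07 (adjusted p = 0.00173, overlapping AKTIP at 51.5%). E2F4 passed as higher (adjusted p = 0.00184) and RB1 as lower (adjusted p = 0.0109) with the block. The 2 rises in this list became 1 without DMSO replicate 2 or 3 or BYL719 replicate 1, and with only the 6 CTRL libraries fitted.

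In the G1 list 9 of 15 genes fell and 1 rose. Cyclin D1 (CCND1) had 214, 199 and 233 CPM in DMSO and 159, 137 and 150.4 CPM in BYL719 (-0.53 ± 0.08, adjusted p = 0.000304), CCND3 changed by -0.87 ± 0.06 (adjusted p = 6.51e-07) and cyclin E2 (CCNE2) by -1.19 ± 0.12 (adjusted p = 9.16e-06, overlapping INTS8 at 173%). The single rise was of CDKN2B, which encodes the CDK4 and CDK6 inhibitor p15, with 8.95, 8.33 and 7.93 CPM in DMSO and 27.0, 21.4 and 19.3 CPM in BYL719 (1.42 ± 0.12, adjusted p = 2.10e-06). Other inhibitors did not rise: CDKN1A, which encodes p21, had 15.5, 20.5 and 20.7 CPM and 12.7, 15.1 and 16.3 CPM and changed by -0.36 ± 0.12 (adjusted p = 0.0252, a call that 4 alternatives did not make), and CDKN2C and CDKN2D changed by -1.25 ± 0.08 and -1.28 ± 0.09 (adjusted p = 1.85e-07 and 3.20e-07). CDK4 and CDK6 did not pass the test (-0.05 (overlapping TSPAN31 at 31.9%) and -0.08).

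**Figure D3:**
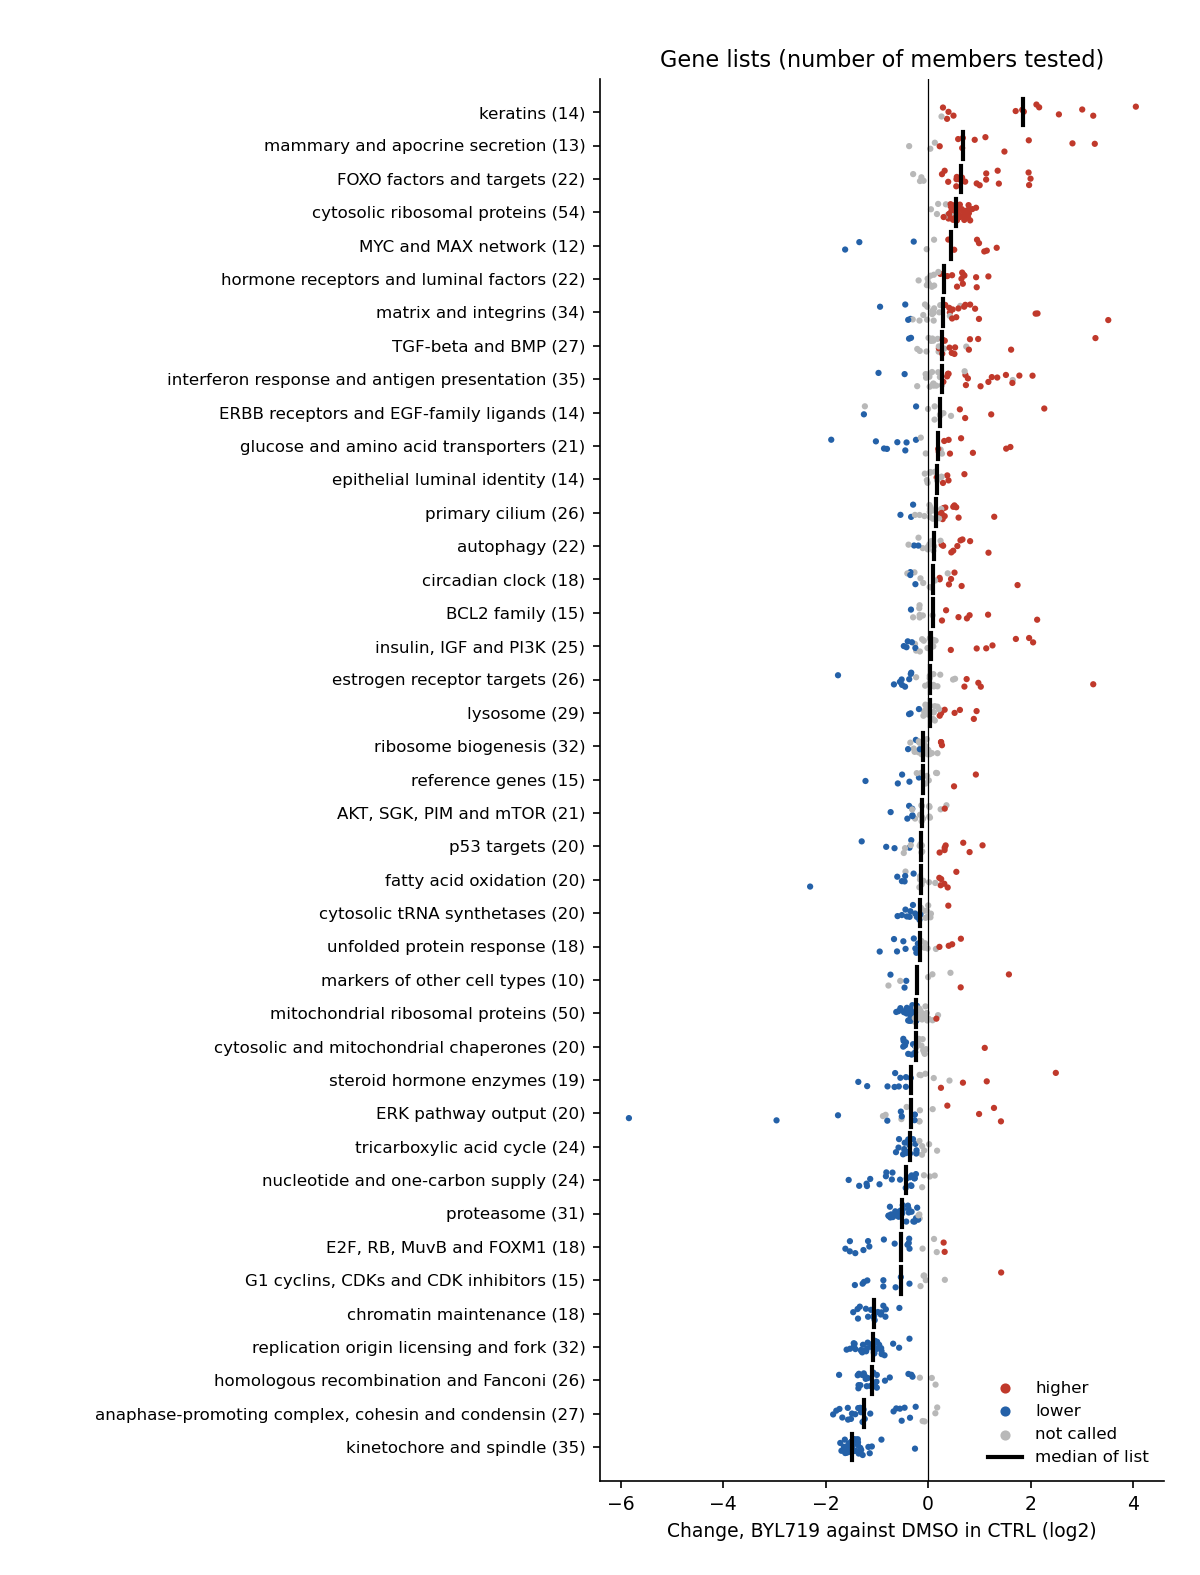
Log2 change in BYL719 against DMSO in CTRL (horizontal) of each measured member of 41 gene lists (rows, with the number of members tested), in red for higher, blue for lower and grey for not called, with the list's median as a black bar. Medians run from -1.48 for kinetochore and spindle genes to 1.85 for keratins, against 0.0049 over all genes, and the point at -5.84 is ETV4, which had 21 counts over the DMSO libraries and 0 over BYL719 (overlapping DHX8 at 2524%).

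Keratins, the intermediate filament proteins of epithelium, rose in 13 of 14 cases and fell in 0, with a median of 1.85 and 9 over 2-fold. KRT23 went from 8.23, 9.28 and 10.2 CPM to 37.6, 42.4 and 44.2 CPM (2.16 ± 0.10, adjusted p = 2.37e-08), KRT80 from 43.6, 49.6 and 52.8 CPM to 183, 164 and 174 CPM (1.84 ± 0.08, adjusted p = 2.66e-08) and KRT13 from 0.945, 0.802 and 0.965 CPM to 8.37, 7.61 and 9.34 CPM (3.22 ± 0.17, adjusted p = 5.17e-08). KRT15 rose by 2.11 ± 0.11 (adjusted p = 6.53e-08), and KRT16, KRT17, KRT81 and KRT86, which share sequence with near-identical copies so that their counts are uncertain, rose by 3.01, 2.55, 1.87 and 1.71. KRT81 and KRT86 also overlap each other. The abundant keratins of luminal cells had smaller changes, and the summed level of the list was 7189, 8758 and 7798 CPM in DMSO and 8544, 10858 and 10468 CPM in BYL719, with the groups overlapping. KRT18 rose by 0.40 ± 0.10 (adjusted p = 0.00771, overlapping KRT8 at 199%), KRT19 by 0.29 ± 0.11 (adjusted p = 0.0479, a call that 6 alternatives did not make), and KRT8 did not pass the test (0.26 ± 0.11, adjusted p = 0.0661). KRT8 passed with the replicate block within the 6 libraries (adjusted p = 0.000434). All 14 keratins rose there, and also without both libraries numbered 1. Within each replicate number the summed level was higher in BYL719.

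Receptors and transcription factors of the luminal and hormone-responsive state rose in 12 of 22 cases and fell in 0 (1 without BYL719 replicate 1, and with the replicate block within the 6 libraries), with a median of 0.31. The Kruppel-like factor KLF4 went from 5.36 to 12.1 CPM (1.18 ± 0.11, adjusted p = 4.63e-06), the glucocorticoid receptor NR3C1 rose by 0.69 ± 0.08 (adjusted p = 1.93e-05), the epithelial ETS factor ELF3 by 0.94 ± 0.11 (adjusted p = 2.92e-05) and MYB by 0.65 ± 0.08 (adjusted p = 3.92e-05). ESR1, the gene of estrogen receptor alpha, was at 349.9, 299 and 319 CPM in DMSO and 351, 307 and 339.8 CPM in BYL719, groups that overlapped (0.05 ± 0.08, adjusted p = 0.670), and FOXA1 did not pass the test either (-0.03 ± 0.06, adjusted p = 0.757). The progesterone receptor PGR, a known target of the estrogen receptor, was at 879, 804 and 965 CPM and 1619.7, 1250.0 and 1452 CPM and rose by 0.71 ± 0.11 (adjusted p = 0.000251). Estrogen receptor targets as a list were split, with 5 of 26 higher, 9 lower and a median of 0.03. Their share of rises is near the 22.6% of all genes tested, of which 21.8% fell. RAB31 (1.03 ± 0.06, adjusted p = 1.48e-07) and the secreted glycoprotein STC2 (0.75 ± 0.06, adjusted p = 1.56e-06) rose, the co-chaperone FKBP4 (-0.51 ± 0.07, adjusted p = 6.14e-05) and the carbonic anhydrase CA12 (-0.52 ± 0.08, adjusted p = 0.000181) fell, and GREB1 (0.10) and TFF1 (0.52) did not pass the test. In the fit with the replicate block within the 6 libraries 12 rose and 10 fell. GREB1 (adjusted p = 0.0252) and TFF1 (adjusted p = 0.000127) were among the rises there.

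Genes of mammary and apocrine secretion rose in 10 of 13 cases and fell in 0, with a median of 0.68. PIP (chr7:143132077-143139739), the prolactin-induced protein of apocrine secretion, had 82.8, 111 and 139.6 CPM in DMSO and 597, 814 and 938 CPM in BYL719 (2.82 ± 0.19, adjusted p = 3.82e-07), the replicate 1 library being the lowest of each treatment. The prolactin receptor PRLR, among the most abundant mRNAs of these cells, had 2748, 2229 and 2547 CPM and 4420.2, 3469 and 4028 CPM (0.66 ± 0.12, adjusted p = 0.000828), with replicate 2 the lowest of each treatment. The prolactin-responsive ETS factor ELF5 rose by 0.68 ± 0.08 (adjusted p = 4.68e-05), the surface glycoprotein CD24 by 1.12 ± 0.10 (adjusted p = 3.96e-06) and STAT5A, the transducer of prolactin signals, by 0.91 ± 0.10 (adjusted p = 2.51e-05, overlapping STAT5B at 829%). SCGB2A2, which encodes mammaglobin, rose at a low level, from 0.120 to 0.341 CPM (1.49 ± 0.27, adjusted p = 0.000824). The caseins CSN1S1, CSN2 and CSN3 and the whey protein gene LALBA had too few counts to test. Enzymes of steroid hormone metabolism fell in 10 of 19 cases and rose in 4 (median -0.34), against 21.8% and 22.6% of all genes tested. The rise of HSD17B1, which makes estradiol from estrone, from 7.76, 9.15 and 8.78 CPM to 44.6, 50.8 and 48.9 CPM (2.49 ± 0.10, adjusted p = 1.82e-08) is of a gene that overlaps a locus named LOC108783654 at 114% of its counts. HSD17B4, which works in the opposite sense, changed by -0.43 ± 0.06 (adjusted p = 9.59e-05) and the aldo-keto reductase AKR1C2 by -1.36 ± 0.18 (adjusted p = 8.63e-05).

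In the matrix and integrin list 15 of 34 genes rose and 4 fell, with a median of 0.28. After TIMP3 the largest rises were those of nephronectin (NPNT), a ligand of integrin alpha8 beta1, from 13.8, 13.2 and 16.6 CPM to 62.3, 58.0 and 70.8 CPM (2.13 ± 0.10, adjusted p = 2.96e-08), and of the fibrillar collagen gene COL5A1, from 7.90, 7.76 and 8.17 CPM to 40.2, 31.1 and 30.6 CPM (2.10 ± 0.19, adjusted p = 3.37e-06). Thrombospondin 1 (THBS1) rose by 0.99 ± 0.06 (adjusted p = 1.86e-07), and the laminin receptor subunit ITGA6 changed by -0.94 ± 0.07 (adjusted p = 1.39e-06). COL1A1, the collagen gene that makes up most of the fibroblast marker signal, fell (-0.73 ± 0.11, adjusted p = 0.000175), and COL1A2, COL3A1 and PDGFRA had too few counts to test. In the TGF-beta and BMP list 13 of 27 genes rose and 2 fell (median 0.28). The ligand TGFB2 had 7.99, 7.45 and 7.13 CPM in DMSO and 77.3, 73.0 and 66.4 CPM in BYL719 (3.26 ± 0.09, adjusted p = 1.35e-09, overlapping TGFB2-OT1 at 20.3%). The activin subunit INHBB rose by 0.98 ± 0.06 (adjusted p = 1.16e-07), the inhibitor of differentiation ID3 by 1.62 ± 0.13 (adjusted p = 1.89e-06) and the co-receptor TGFBR3 by 0.79 ± 0.11 (adjusted p = 0.000129), while TGFB1 (-0.16) and TGFB3 (0.10) did not pass the test.

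The other large rises among well expressed genes (mean log2 CPM 2 or more) were of varied function, with an adjusted p between 9.71e-09 and 1.73e-05. OLR1, a scavenger receptor for oxidised lipoprotein, had 8.81, 9.62 and 8.89 CPM in DMSO and 70.5, 78.1 and 61.0 CPM in BYL719 (2.94 ± 0.11). The carboxypeptidase CPA4 had 5.19, 6.94 and 5.96 CPM and 41.7, 41.2 and 42.7 CPM (2.80 ± 0.10), and GPRC5A, a retinoic acid-induced receptor, 15.2, 17.2 and 15.1 CPM and 64.2, 69.7 and 70.0 CPM (2.10 ± 0.07). The set was limited to called genes whose groups did not overlap, so neither trait is a result about its members. Secreted and surface proteins in this set included the epithelial chemokine CCL28 (2.46 ± 0.17), the immune checkpoint ligand VTCN1 (2.23 ± 0.13), the netrin NTN4 (2.48 ± 0.17), the semaphorin SEMA6C (2.14 ± 0.19) and the kallikrein protease KLK10 (2.26 ± 0.25). The iron-handling reductase CYBRD1 (2.12 ± 0.16), the membrane protein TMC4 (2.39 ± 0.17), RANBP3L (2.89 ± 0.22) and the microtubule linker SYBU (2.56 ± 0.18) rose too. SYNPO (2.45 ± 0.15), which binds actin, and CDC42EP3 (2.21 ± 0.11), an effector of the GTPase CDC42, belong to the same set.

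Among the largest falls of well expressed genes, ACOX2, a peroxisomal oxidase of bile acid and branched-chain lipid metabolism, had 7.75, 7.51 and 7.81 CPM in DMSO and 1.51, 1.54 and 1.62 CPM in BYL719 (-2.30 ± 0.10, adjusted p = 2.37e-08). LIN28A, which blocks maturation of let-7 microRNAs, had 57.7, 39.0 and 42.9 CPM and 15.2, 10.99 and 11.05 CPM (-1.90 ± 0.16, adjusted p = 1.96e-06), and B4GALNT1, which builds gangliosides, 11.1, 9.70 and 9.34 CPM and 3.08, 2.27 and 2.503 CPM (-1.94 ± 0.15, adjusted p = 1.02e-06). SLC7A11, the cystine importer of glutathione synthesis, had 28.0, 14.2 and 13.5 CPM and 6.87, 3.999 and 4.16 CPM, with replicate 1 the highest of each treatment (-1.89 ± 0.30, adjusted p = 0.000297). The germ-line RNA-binding gene YBX2 (-1.73 ± 0.09, adjusted p = 7.07e-08), the neuropeptide NMU (-1.73 ± 0.12, adjusted p = 3.10e-07) and the zinc finger gene ZNF331 (-1.75 ± 0.33, adjusted p = 0.000985) fell as well. PIR, an iron-binding nuclear protein, changed by -1.83 ± 0.09 (adjusted p = 4.20e-08, overlapping PIR-FIGF at 65.6%). Other large falls among genes in none of the lists were of the mitotic kinase PBK (-1.84 ± 0.08, overlapping ESCO2 at 39.4%), SHCBP1 (-1.84 ± 0.11), the phosphatase CDKN3 (-1.81 ± 0.09), TROAP (-1.79 ± 0.11), the kinesin KIF14 (-1.77 ± 0.22), SPAG5 (-1.75 ± 0.14), PRR11 (-1.74 ± 0.21), WDR62 (-1.73 ± 0.11) and PSRC1 (-1.72 ± 0.10), with an adjusted p between 2.29e-08 and 5.47e-05. RAD54L, of recombination (-1.74 ± 0.09, adjusted p = 4.00e-08, overlapping LRRC41 at 424%), SGO1, which guards cohesion (-1.73 ± 0.12, adjusted p = 5.07e-07), and FAM72D, which has near-identical copies (-1.74 ± 0.11, adjusted p = 2.69e-07, overlapping SRGAP2B at 195%), fell as well. KIF14, SPAG5 and PRR11 were highest in replicate 1 of each treatment.

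Cytosolic ribosomal protein genes rose in 48 of 54 cases and fell in 0, with a median of 0.55 and 0 over 2-fold. Their summed level was 24512, 30631 and 29178 CPM in DMSO and 33761, 47288 and 45028 CPM in BYL719, with replicate 1 the lowest of each treatment and no overlap. Without BYL719 replicate 2, 31 rather than 48 rose. These genes have many processed pseudogenes, so their counts depend on how shared reads were treated, which is not given in the sources used here. Their mRNAs are known to start with a pyrimidine tract (the TOP motif), through which mTOR complex 1 controls their translation. A C at the annotated start followed by at least 4 pyrimidines, a search added after the values were seen, was found in 31 of 46 promoters of the list (67.4%), against 5.07% of tested genes, 4.04% of all promoters, 4.44% of 45 mitochondrial ribosomal protein genes and 0 of 26 proteasome genes. The starts of RPS6 (chr9:19380217-19380246, minus strand), RPLP0 (chr12:120201092-120201121, minus strand), RPS18 (chr6:33272065-33272094, plus strand), EEF1A1 (chr6:73521013-73521042, minus strand) and EEF2 (chr19:3985444-3985473, minus strand) are shown from 10 bases before the start to 20 after, with the tract in capitals from the first transcribed base.
RPS6: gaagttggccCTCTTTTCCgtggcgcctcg
RPLP0: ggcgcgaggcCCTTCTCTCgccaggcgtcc
RPS18: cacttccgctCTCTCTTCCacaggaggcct
EEF1A1: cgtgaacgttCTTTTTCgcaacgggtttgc
EEF2: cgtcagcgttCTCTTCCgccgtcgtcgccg

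RPS6, the ribosomal protein that S6 kinase phosphorylates, had 936, 1187 and 1088 CPM in DMSO and 1399, 2027 and 1847 CPM in BYL719 (0.72 ± 0.14, adjusted p = 0.00134). RPL3 of the peptidyl transferase centre had 916, 1134 and 1091 CPM and 1635, 2222 and 2145 CPM (0.93 ± 0.12, adjusted p = 4.71e-05), and RPL23 rose by 0.86 ± 0.10 (adjusted p = 3.22e-05). The elongation factors EEF1A1, with 1374, 1732 and 1652 CPM and 2402, 3411 and 3255 CPM, and EEF2, with 1798, 2149.6 and 2164 CPM and 2664, 3516 and 3625 CPM, gained among the most reads of all genes (0.93 ± 0.13 and 0.68 ± 0.11, adjusted p = 0.000143 and 0.000453). For each of these genes all BYL719 libraries were above all DMSO libraries, and the largest value came from BYL719 replicate 2, except for EEF2. The mitochondrial ribosomal RNA RNR2 rose from 1831, 1714 and 1658 CPM to 3335, 3360.3 and 3219 CPM (0.93 ± 0.07, adjusted p = 1.06e-06).

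Most genes of ribosome assembly, 26 of 32, were not called. In the list 3 were higher (1 without DMSO replicate 3) and 3 lower, against 22.6% and 21.8% of all genes tested, with a median of -0.09. The nucleolar proteins NCL (-0.24), NPM1 (-0.10) and FBL (-0.01) did not pass the test. RRP12 rose by 0.25 ± 0.06 (adjusted p = 0.00368) and UTP15 changed by -0.39 ± 0.08 (adjusted p = 0.00148). The number of falls was 1 without DMSO replicate 1 or 2 or BYL719 replicate 3, 7 without DMSO replicate 3, 9 without BYL719 replicate 1 and 14 with the replicate block within the 6 libraries, NCL among them (adjusted p = 7.30e-05). Of mitochondrial ribosomal protein genes more fell than rose, with 23 of 50 lower, 1 higher and a median of -0.24. MRPS5 (-0.42 ± 0.06, adjusted p = 0.000138) and MRPL39 (-0.54 ± 0.08, adjusted p = 0.000225) were among the falls. Without DMSO replicate 2 the falls numbered 13, and with the replicate block within the 6 libraries 40. The single rise was lost without any one of DMSO replicates 1, 2 and 3 and BYL719 replicates 2 and 3, and became 2 without BYL719 replicate 1. It was also lost with only the 6 CTRL libraries fitted.

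**Figure D4:**
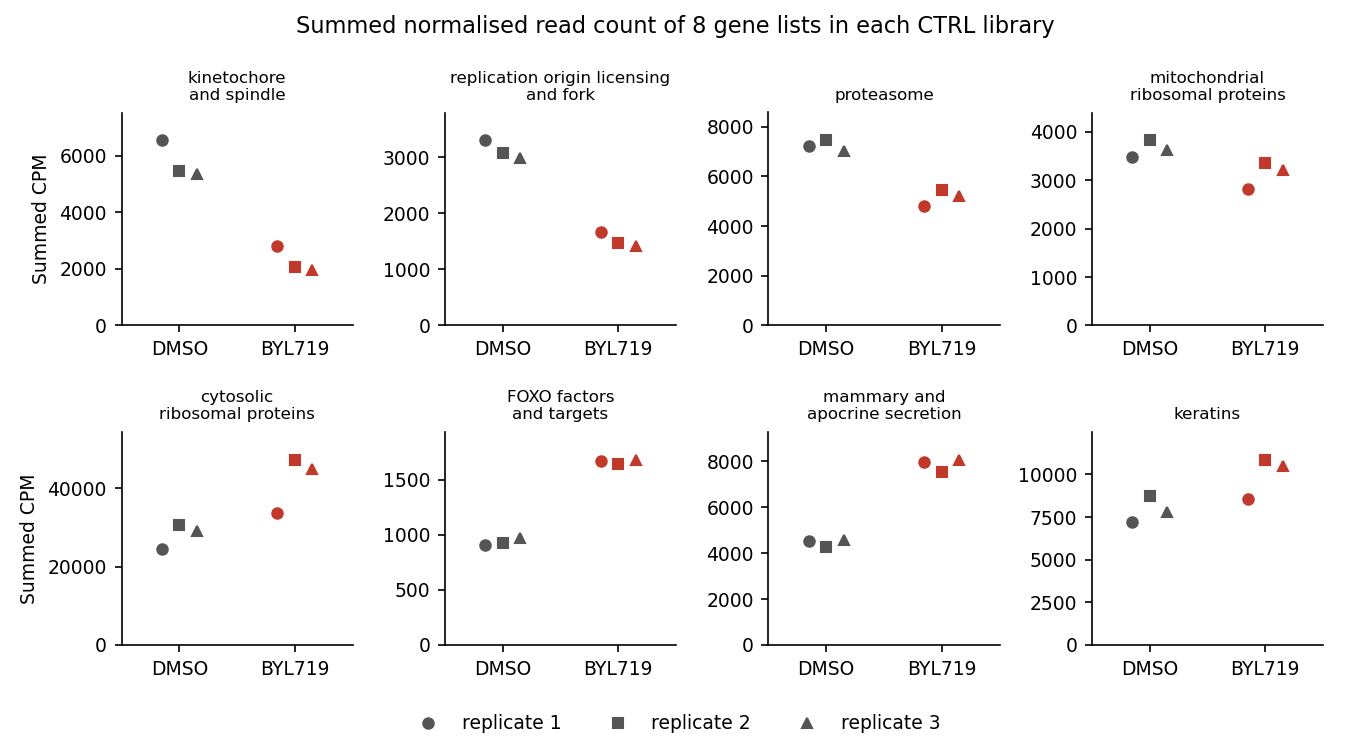
Summed normalised read count (CPM, vertical, from 0) of 8 gene lists in each CTRL library by treatment, with grey for DMSO, red for BYL719 and the symbol giving the replicate number. The sums of kinetochore and spindle, replication and proteasome genes are lower in each BYL719 library than in each DMSO library, those of cytosolic ribosomal protein, FOXO and secretion genes higher, and the groups overlap for keratins.

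Enzymes of the tricarboxylic acid cycle fell in 18 of 24 cases and rose in 0 (1 without BYL719 replicate 1), with a median of -0.36. Citrate synthase (CS) had 412, 416 and 415 CPM in DMSO and 284, 301 and 301 CPM in BYL719 (-0.49 ± 0.06, adjusted p = 2.51e-05), the pyruvate dehydrogenase subunit DLAT changed by -0.63 ± 0.06 (adjusted p = 9.16e-06) and fumarase (FH) by -0.58 ± 0.06 (adjusted p = 9.16e-06). Fatty acid oxidation genes were split evenly, with 6 of 20 higher and 6 lower, against 22.6% and 21.8% of all genes tested (median -0.14), and 11 lower with the replicate block within the 6 libraries. Besides ACOX2, HADH changed by -0.51 ± 0.09 (adjusted p = 0.000761).

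Transporters of glucose and amino acids changed in both directions, with 9 of 21 higher and 8 lower, and 5 rather than 9 higher without DMSO replicate 1. SLC7A5, the carrier of large neutral amino acids, had 1719, 1694 and 1596 CPM in DMSO and 949, 973 and 948 CPM in BYL719 (-0.80 ± 0.06, adjusted p = 1.00e-06), and its partner chain SLC3A2 changed by -0.60 ± 0.07 (adjusted p = 2.24e-05). The glutamine carrier SLC38A2 rose by 0.87 ± 0.08 (adjusted p = 5.45e-06) and its relative SLC38A1 by 0.64 ± 0.11 (adjusted p = 0.000401). Of 20 cytosolic tRNA synthetases 11 fell and 1 rose (median -0.16), with VARS1 at -0.44 ± 0.05 (adjusted p = 4.05e-05) and QARS1 at 0.39 ± 0.10 (adjusted p = 0.00600). The 11 falls became 5 with only the 6 CTRL libraries fitted, and 5 without DMSO replicate 1 or BYL719 replicate 3. They became 6 without BYL719 replicate 2 and 7 without DMSO replicate 2.

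Subunits of the proteasome fell in 28 of 31 cases and rose in 0, with a median of -0.50 and none over 2-fold. The summed level was 7241, 7458 and 7012 CPM in DMSO and 4827, 5446 and 5232 CPM in BYL719. The base subunit PSMD2 had 953, 881 and 856 CPM and 526, 525 and 524 CPM (-0.77 ± 0.06, adjusted p = 1.33e-06), and the lid subunit PSMD11 312, 299.8 and 298 CPM and 184, 177 and 172 CPM (-0.77 ± 0.06, adjusted p = 1.03e-06). The groups did not overlap for either. PSMB4, PSMB5 and PSMD8 did not pass the test (-0.17, -0.17 and -0.19). They passed with the replicate block within the 6 libraries (adjusted p = 0.00121, 0.00139 and 0.000485). Chaperones of the cytosol and mitochondria fell in 10 of 20 cases and rose in 1 (median -0.24). The chaperonin subunit TCP1 changed by -0.48 ± 0.07 (adjusted p = 0.000147) and the mitochondrial HSPD1 by -0.45 ± 0.07 (adjusted p = 0.000266), and the single rise was of the small heat shock protein HSPB1, from 185, 260.1 and 286 CPM to 436, 540.3 and 596 CPM (1.10 ± 0.17, adjusted p = 0.000298). In the unfolded protein response list 9 of 18 fell and 4 rose, against 21.8% and 22.6% of all genes tested. SDF2L1 (-0.94 ± 0.09, adjusted p = 6.18e-06) and MANF (-0.67 ± 0.07, adjusted p = 2.14e-05) were lower and HERPUD1 (0.64 ± 0.08, adjusted p = 7.11e-05) higher. HSPA5, which encodes the chaperone BiP, did not pass the test (-0.13 ± 0.07, adjusted p = 0.127), but passed with the block (adjusted p = 0.0110).

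Autophagy genes rose in 9 of 22 cases and fell in 2 (1 without BYL719 replicate 2 or 3 and 0 without DMSO replicate 2), with a median of 0.11. The ATG8 family genes GABARAPL1 (1.18 ± 0.08, adjusted p = 2.74e-07) and MAP1LC3B (0.82 ± 0.08, adjusted p = 7.96e-06) rose, with WIPI2 (0.67 ± 0.07, adjusted p = 7.94e-06) and BECN1 (0.49 ± 0.06, adjusted p = 2.82e-05), which act at the forming membrane. The master regulators TFEB (-0.38) and TFE3 (-0.01) did not pass the test. Lysosomal genes rose in 7 of 29 cases and fell in 3 (median 0.03). The share of rises is near the 22.6% of all genes tested. The cathepsin CTSF had 57.3, 71.7 and 72.3 CPM in DMSO and 102, 133 and 138 CPM in BYL719 (0.89 ± 0.11, adjusted p = 6.52e-05), the granulin precursor GRN 122, 164 and 179 CPM and 228, 314 and 351 CPM (0.94 ± 0.16, adjusted p = 0.000427), and the membrane protein LAMP1 did not pass the test (-0.05). The block within the 6 libraries gave 11 rises and 5 falls.

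Interferon response and antigen presentation genes rose in 15 of 35 cases and fell in 2, with a median of 0.27. The GTPase GBP2 went from 5.38, 4.10 and 3.93 CPM to 21.0, 16.9 and 17.2 CPM (2.04 ± 0.14, adjusted p = 3.09e-07), while the oligoadenylate synthetase OAS3 went from 80.0, 75.5 and 79.7 CPM to 42.2, 45.9 and 32.2 CPM (-0.97 ± 0.11, adjusted p = 1.75e-05). BYL719 replicate 2 was the highest for some members: OAS2 had 2.53, 3.46 and 2.82 CPM in DMSO and 6.33, 16.2 and 7.77 CPM in BYL719, and IFIT1 had 4.53, 4.83 and 5.12 CPM and 2.28, 9.99 and 1.90 CPM (overlapping LIPA at 2403%). Without BYL719 replicate 2, 8 genes rose and 5 fell, and without DMSO replicate 1, 8 rose. With only the 6 CTRL libraries fitted, 9 rose. The transporter subunit TAP2 changed by -0.46 ± 0.06 (adjusted p = 4.72e-05), and HLA-B (0.03) and B2M (-0.02) did not pass the test.

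Of 20 known p53 targets 7 rose and 5 fell, against 22.6% and 21.8% of all genes tested (median -0.14), with the death receptor FAS at 8.18, 8.98 and 8.41 CPM in DMSO and 3.59, 3.35 and 3.47 CPM in BYL719 (-1.30 ± 0.08, adjusted p = 1.79e-07), DDB2, of DNA repair, lower at -0.82 ± 0.07 (adjusted p = 2.37e-06) and TP53I3 higher at 0.68 ± 0.08 (adjusted p = 2.50e-05). The block within the 6 libraries gave 12 falls. In the BCL2 family 7 of 15 rose and 1 fell (2 without BYL719 replicate 1 and 5 with the block). Survival genes and death genes of the family both rose: BCL2 had 2.15, 2.44 and 2.91 CPM and 5.89, 5.34 and 5.63 CPM (1.17 ± 0.12, adjusted p = 8.65e-06), BCL2L1, which encodes BCL-XL, rose by 0.59 ± 0.09 (adjusted p = 0.000171), and the BH3-only genes HRK and BMF rose by 2.13 ± 0.25 and 0.76 ± 0.12 (adjusted p = 3.32e-05 and 0.000349). In the circadian clock list 7 of 18 rose and 3 fell, against 22.6% and 21.8% of all genes tested, with the repressor BHLHE40 at 0.51 ± 0.09 (adjusted p = 0.000460). There were 4 rises without DMSO replicate 1 or 2 or BYL719 replicate 2, 0 falls without DMSO replicate 3 or BYL719 replicate 2 or 3, and 5 falls with the block. A fit of only the 6 CTRL libraries gave 4 rises and 1 fall in this list. Primary cilium genes rose in 11 of 26 cases and fell in 3 (7 rises without DMSO replicate 3 and 5 falls with the block), led by the BBSome subunit BBS1 (1.29 ± 0.07, adjusted p = 7.23e-08, overlapping ZDHHC24 at 64.8%).

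Genes often used as references were not all flat. Of 15, 5 fell and 2 rose (4 with the replicate block within the 6 libraries, and with upper-quartile scaling). Over all genes tested 21.8% fell and 22.6% rose. The beta-tubulin gene TUBB had 2631, 2836 and 2779 CPM in DMSO and 1206, 1165 and 1164 CPM in BYL719 (-1.22 ± 0.06, adjusted p = 4.20e-08), and the alpha-tubulin genes TUBA1B (-1.51 ± 0.07, adjusted p = 2.75e-08) and TUBA1C (-1.32 ± 0.07, adjusted p = 9.21e-08) fell alongside, near-identical copies whose reads can be shared. GAPDH changed by -0.59 ± 0.09 (adjusted p = 0.000298) and pyruvate kinase PKM, another glycolytic enzyme, from 1841, 2067 and 2102 CPM to 1156, 1356 and 1398 CPM (-0.62 ± 0.09, adjusted p = 0.000135). ACTB (-0.10 ± 0.10, adjusted p = 0.441) and TBP (0.01 ± 0.07, adjusted p = 0.902) did not pass the test.

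Some genes were read almost wholly in a single treatment. There were 14 rises with at most 3 counts over the 3 DMSO libraries and 9 falls with at most 3 over the 3 BYL719 libraries, and those given here were chosen after their values were seen. GLIS1, a zinc finger factor, had 0 counts in DMSO and 41 in BYL719, and the calcium channel gene CACNA1C 0 and 34. The retinol carrier gene RBP2 had 1 and 127, the long non-coding RNA FILNC1, known as a FOXO-induced transcript, 3 and 248, and IGSF23 3 and 113. Of the falls, ETV4, an ETS factor downstream of receptor kinases, had 21 counts in DMSO and 0 in BYL719, THEG 14 and 0 and TIMP4, a relative of TIMP3, 27 and 3. Such counts are few against the library totals, and fitted folds of these genes depend on the prior count.

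The size of the response in CTRL was set against that in NF1KO, in which NF1, the gene of the RAS inhibitor neurofibromin, was at 0.475 ± 0.00633 CPM (SD, n = 2) in DMSO, against 249 ± 39.6 CPM (SD, n = 3) in CTRL. Over all genes 1510 (9.39% of those tested) differed in their response between the lines, and 2411 without both CTRL libraries numbered 1. Library 1 of NF1KO in DMSO is not analysed here. The compared set was 20 genes from among the 4 markers and the 10 largest rises and 10 largest falls of CTRL, which share members. The difference passed the test for 16 of them, and in each of these the change was larger in CTRL. Since these genes were chosen for large changes in CTRL, that direction is a description. CDC20 was at 184 ± 6.72 CPM (SD, n = 2) in NF1KO in DMSO and 114 ± 9.47 CPM (SD, n = 3) in BYL719, a change of -0.69 ± 0.08 where CTRL had -1.85 ± 0.08 (difference -1.17 ± 0.11, adjusted p = 7.66e-05). IRS1 was already at 114 ± 6.28 CPM in NF1KO in DMSO and reached 189 ± 7.97 CPM (0.73 ± 0.08, difference 0.52 ± 0.10, adjusted p = 0.00685). Among the 20 genes the largest differences were of CPA4 (2.46 ± 0.14, adjusted p = 9.00e-06) and HSD17B1 (2.23 ± 0.14, adjusted p = 1.24e-05), whose levels in NF1KO moved from 11.9 ± 0.624 to 14.97 ± 0.383 CPM and from 12.3 ± 0.733 to 14.7 ± 1.48 CPM.

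For KRT4 (1.01 ± 0.38, adjusted p = 0.143), TGFB2 (0.43 ± 0.23, adjusted p = 0.428), PIP (0.53 ± 0.27, adjusted p = 0.295) and SLC7A11 (0.19 ± 0.43, adjusted p = 0.865) the difference did not pass the test, which does not show that the lines responded alike. PIP passed without both CTRL libraries numbered 1 (adjusted p = 0.0283) and SLC7A11 with the replicate block (adjusted p = 0.0156). The NF1KO line was measured with 2 DMSO libraries, and an effect of NF1 cannot be told apart from other differences between the lines.

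**Figure D5:**
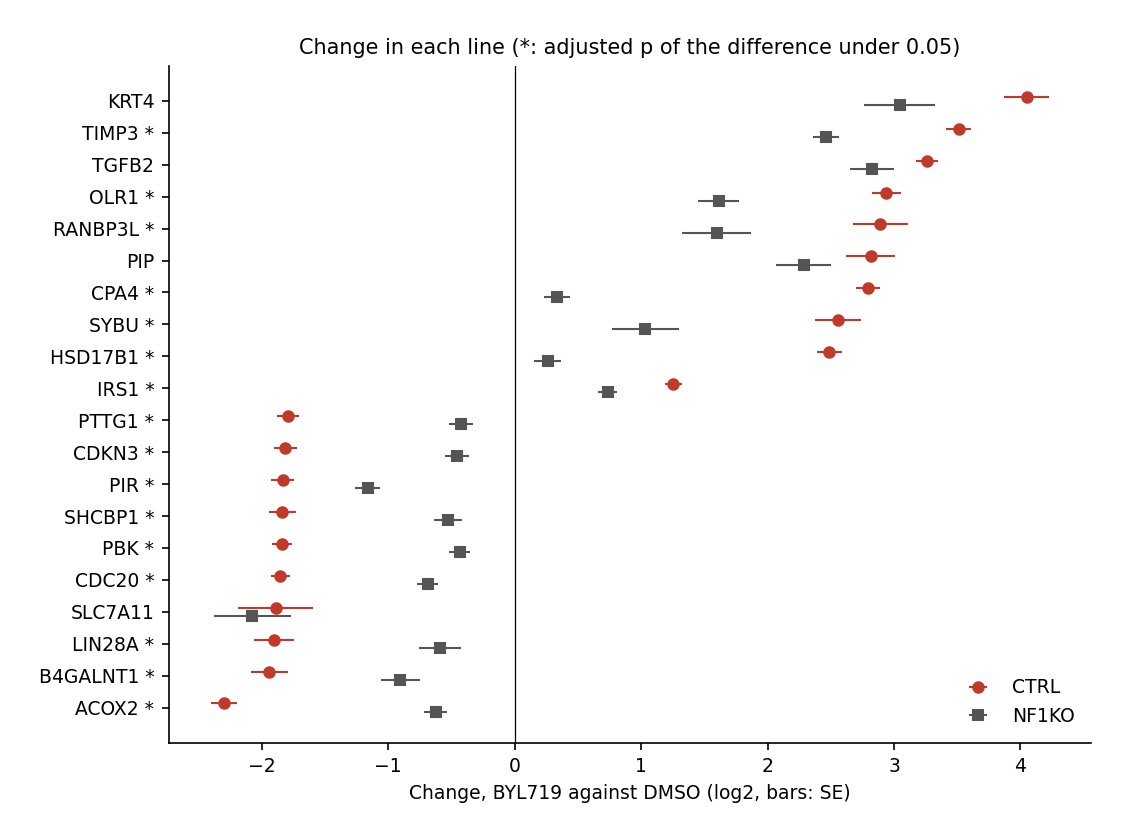
Log2 change in BYL719 against DMSO (horizontal) of 20 genes in CTRL (n = 3 against 3) and NF1KO (n = 3 against 2), with bars for the SE and a star where the difference between the lines had an adjusted p under 0.05. CTRL lies farther from 0 than NF1KO for the 16 starred genes, and SLC7A11 lies at -1.89 in CTRL and -2.08 in NF1KO.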

How the data were processed

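Poly(A) RNA of T47D cells was sequenced as stranded single reads, per the labels' protocols. The authors deposited raw counts per Entrez gene for 11 libraries. The submitters' processing notes name STAR 2.5.2a, SAMtools 1.7, Picard 2.9.2, edgeR and the hg38 build without their roles, and the counting tool, its use of strand and the annotation are not given in the sources used here. Library 1 of NF1KO in DMSO is not analysed here.

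Counts were filtered with filterByExpr, scaled by TMM and fitted with edgeR 4.0.16 (R 4.3.3, limma 3.58.1) as 4 groups with 7 residual degrees of freedom. The 2-sided quasi-likelihood tests were of BYL719 against DMSO in CTRL and of its difference between lines, with Benjamini-Hochberg adjustment over all genes tested. The biological coefficient of variation was 10.0%. DESeq2 1.42.0 served as an alternative, and the steps were checked on simulated data. Values per library are CPM on TMM-scaled library sizes. Figures and tables were made with Python 3.11.15, pandas 2.3.3, numpy 2.4.6 and matplotlib 3.10.9. Names, positions and promoters came from RefSeq tables (GRCh38.p14), which matched 27740 of 27864 gene IDs, and the first promoter listed for a gene was used.

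Genes were named by rule: the 4 markers, the 25 largest rises and falls among called genes whose mean log2 CPM was 2 or more and whose groups did not overlap, the 5 largest rises and falls in CPM, and up to 4 members of each of 41 lists (1007 memberships) by adjusted p. Other list members were named after their values were seen. Members and lists were chosen with earlier results of these data known. Some genes that the rule names are not reported here. Alternatives were other scalings, filters and tools, the CTRL libraries alone, the replicate number as a block and leaving out libraries. Deviations of same-numbered CTRL libraries from their group means correlated across genes at 0.59, 0.34 and 0.32, and those of differently numbered libraries at -0.42 to 0.23. Replicate 2 of a treatment against replicate 3 of the other gave 0.18 and 0.23. Deviations within a group of 3 sum to 0, so a replicate 1 set apart in both treatments makes replicates 2 and 3 correlate whatever their number. These values therefore do not settle a pairing beyond replicate 1. The number was taken as a pairing in the alternatives with a replicate block, although the labels do not say what it stands for. The fit reported has no such block, so its SEs and p-values leave any such pairing out.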

Additional observations from a re-analysis of the deposited data

Results flagged for a closer look

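The response to BYL719 differed between CTRL and NF1KO, by edgeR's test of the difference itself, for 16 of the 20 genes compared, and each differed in the sense of a larger change in CTRL. These genes were chosen for their changes in CTRL. The values that follow are log2 changes in CTRL less those in NF1KO, each with its SE and Benjamini-Hochberg adjusted p.

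Among genes that rose, CPA4 differed by 2.46 ± 0.14 (adjusted p = 9.00e-06), HSD17B1 by 2.23 ± 0.14 (adjusted p = 1.24e-05), SYBU by 1.53 ± 0.33 (adjusted p = 0.0114), OLR1 by 1.32 ± 0.20 (adjusted p = 0.00115), TIMP3 by 1.05 ± 0.14 (adjusted p = 0.000467) and IRS1 by 0.52 ± 0.10 (adjusted p = 0.00685). RANBP3L differed by 1.30 ± 0.35 (adjusted p = 0.0352), which did not pass with limma-voom (adjusted p = 0.0731) or without 1 library (adjusted p = 0.0652 without replicate 1 of DMSO, 0.0794 without replicate 2 of DMSO and 0.0569 without replicate 3 of BYL719, all of CTRL).

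Among genes that fell, the mitotic genes CDC20 (-1.17 ± 0.11, adjusted p = 7.66e-05), PBK (-1.41 ± 0.12, adjusted p = 3.01e-05), SHCBP1 (-1.31 ± 0.15, adjusted p = 0.000240), CDKN3 (-1.36 ± 0.13, adjusted p = 7.41e-05) and PTTG1 (-1.37 ± 0.13, adjusted p = 7.05e-05) differed by similar amounts. The others were ACOX2 (-1.68 ± 0.14, adjusted p = 3.01e-05), LIN28A (-1.31 ± 0.23, adjusted p = 0.00322), B4GALNT1 (-1.04 ± 0.22, adjusted p = 0.00978) and PIR (-0.67 ± 0.13, adjusted p = 0.00745).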

How the results depend on the processing

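Over the alternatives other than leaving out a library, 3118 to 5106 genes were higher (3628 in the fit reported) and 3077 to 5267 lower (3504), and 82.5% to 99.9% of the reported calls were made again under any one of 17 alternatives. With the replicate block within the 6 CTRL libraries 5106 genes were higher and 5267 lower, and with the replicate block over all 11 libraries 4295 and 4236. Without a block the 6 CTRL libraries alone gave 3118 and 3077. Leaving out 1 CTRL library at a time gave 3072 to 3823 genes higher, 2896 to 3641 lower, 785 to 847 over 2-fold higher and 563 to 732 over 2-fold lower. With at least 1 CPM in at least 3 libraries, which leaves fewer genes to test, 493 were over 2-fold higher (826). The difference between the lines was called for 1510 genes, for 2411 without both CTRL libraries numbered 1, for 2229 with the replicate block and for 1080 to 2155 when 1 library was left out, and the cause was not tested. Over 206 genes named by rule, 14 of 3499 values lost their call, of CDH1, ACTA2, POLR1B and NOB1, and none changed direction. Of 697 medians of lists 118 moved by more than the spread between replicates, and those of the insulin, IGF and PI3K genes, estrogen receptor targets, transporters, lysosome and markers of other cell types changed sign under some alternative. No call of a named gene that the fits with the replicate block tested was lost under it, and ETV4 and some other genes at or near 0 in a single treatment had too few counts for the block within the 6 libraries. Low counts limit the folds of the scarcest genes.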
